A study of Drosophila melanogaster with 12 samples.

Results

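Unexposed Drosophila melanogaster flies were compared 1 day apart: control flies at 96 h (CK96h) against control flies at 72 h (CK72h). The comparison took the 6 control libraries, 3 of each time, out of the 12 libraries of the series, and every gene of the deposited table was considered. The study fed flies an ordinary medium with or without erythritol, a sugar alcohol with insecticidal activity, and collected them on day 3 (72 h) or day 4 (96 h). Newly emerged flies were kept in flasks on a medium of sucrose, corn powder, agar, dry yeast and propanoic acid, which CK72h and CK96h shared, and the medium of the erythritol groups (T72h and T96h) held erythritol in addition. RNA with a poly(A) tail was sequenced from whole bodies of pooled flies. Neither the labels nor the methods state a strain, a genotype or the sex of the flies.

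The control libraries held between 20131349 and 23327826 counts. Values below are CPM, counts per 1000000 counts of a library scaled with TMM factors, which correct for differences in library composition, and they are not divided by gene length. Of 17707 genes in the table, 12943 had enough counts in the control libraries to be tested with edgeR's quasi-likelihood test. A gene is written as called when its adjusted p (Benjamini-Hochberg, over all genes tested) was under 0.05 and its log2 fold change was 1.5 or more in either direction, as the study chose its genes. It is written as having risen or fallen at an adjusted p under 0.05, with its fold given beside it. Positive log2 fold changes are higher in CK96h.

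Adult flies are strongly dimorphic. The testis transcribes a large set of genes found in no other organ, many of them duplicates of housekeeping genes, and the male accessory gland and ejaculatory duct secrete the seminal proteins. In females, follicle cells build the eggshell in order, vitelline membrane first and chorion later, while yolk proteins come from the fat body and the follicle cells. Flies answer microbes through the Imd and Toll pathways, which end in antimicrobial peptides and Bomanins secreted mainly by the fat body, and hemocytes are the blood cells that engulf microbes. In whole-body RNA, fewer cells of a type and less RNA per cell cannot be told apart.

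Markers of many organs of both sexes were present in these whole-body libraries. In CK72h the genes of the sperm tail summed to 6552 ± 36.4 CPM (mean ± SD, n = 3 libraries here and below), the accessory gland proteins to 5964 ± 109, the yolk genes to 7811 ± 45.3, the eye genes to 6533 ± 16 and the muscle genes to 9919 ± 46.7. The larval fat body and storage protein genes summed to only 6.74 ± 0.391 CPM.

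Most genes differed a little between the times, and a large block of genes fell by a similar amount. The test called 169 genes higher (1.31% of those tested) and 916 genes lower (7.08%) in CK96h. With a fold threshold of 1 on the log2 scale the counts were 371 higher (2.87%) and 2881 lower (22.3%), and by the adjusted p alone 5469 were higher (42.3%) and 5168 lower (39.9%). The median over all genes tested was 0.02. Among the 10433 genes whose mean log2 CPM was 2 or more, 1738 (16.7%) lay between -1.75 and -1, with 937 of them in the range from -1.5 to -1.25 against 370 from -1 to -0.75. The fold threshold of 1.5 cut through this block: 434 of its genes lay beyond it. Where the scaling alone was changed, the count of genes lower ran from 916 with TMM factors to 1357 with library totals. It was 536 in a fit of all 12 libraries, which also changed the genes tested and the estimate of the spread. At a threshold of 1 it ran from 2559 to 3128 over the alternatives run. For this reason the lists below are given by the adjusted p and the fold together. The lists were written with earlier results of these data known, so their counts are descriptions. Counts of members that rose or fell stand against the 42.3% and 39.9% of all genes.

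**Figure D1:**
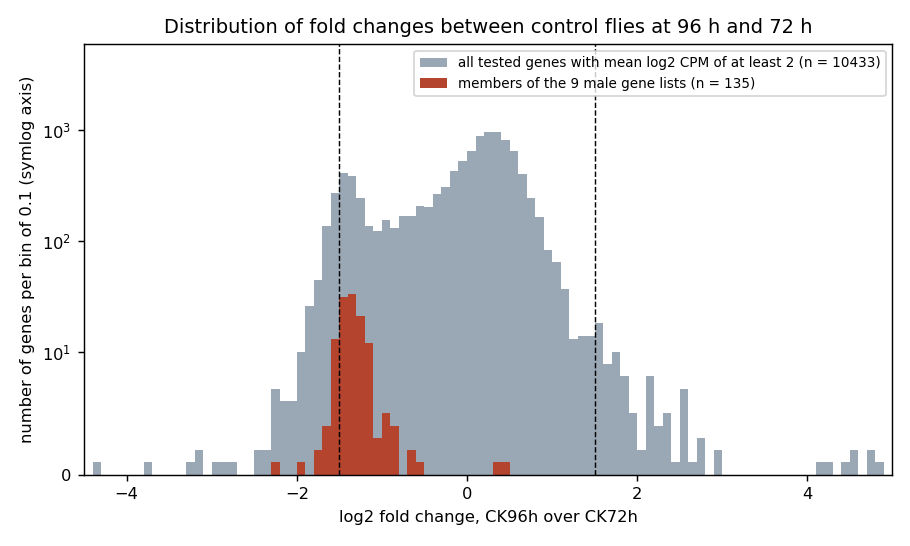
Number of genes (vertical, symlog axis) by log2 fold change of CK96h over CK72h (horizontal, bins of 0.1) for the 10433 tested genes whose mean log2 CPM was 2 or more in grey, and the 135 of them that belong to the 9 male gene lists in red. Dashed lines mark the fold threshold of 1.5. The grey distribution has a second hump between -1.75 and -1, where most red genes lie. Of the 1738 genes in that range 119 are red.

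Genes of the male reproductive system fell together at 96 h. Of the 160 tested members of the 9 male lists, 140 had log2 fold changes between -1.75 and -1, 3 lay at or below -1.75 and 17 above -1. Among the 1738 block genes of mean log2 CPM of 2 or more, 119 were members of these lists, so most of the block lay outside them. The members of the sperm tail and mitochondrial derivative list, structural and enzymatic parts of the sperm, fell in 23 of 23 cases, with a median of -1.41 against 0.02 over all genes, and 23 of 23 were past a log2 fold change of -1. Their summed level was 6552 ± 36.4 CPM in CK72h and 2438 ± 17.1 CPM in CK96h.

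betaTub85D, the tubulin of the sperm axoneme, was at 463, 459.7 and 460.4 CPM in CK72h and 155, 153 and 145 CPM in CK96h. Its log2 fold change was -1.61 (SE 0.0359, adjusted p = 1.45e-23). S-Lap4, one of the leucyl aminopeptidases that are major proteins of the sperm, was at 561, 570.1 and 580.0 CPM in CK72h and 192, 201 and 198 CPM in CK96h (log2 fold change -1.53, adjusted p = 4.23e-23), and S-Lap3 at 493 ± 4.11 CPM in CK72h against 170.2 ± 4.3 CPM in CK96h (-1.54). All CK72h libraries lay above all CK96h libraries for each of these genes.

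The regulators of spermatocyte transcription fell as well, in 12 of 12 cases with a median of -1.31. can, a testis-specific TFIID subunit, went from 5.79 ± 0.00951 to 1.98 ± 0.113 CPM (-1.55, adjusted p = 1.31e-09, and -1.49 without replicate 3 of CK96h), aly, a subunit of the testis meiotic arrest complex, from 3.75 ± 0.297 to 1.37 ± 0.272 CPM (-1.46, adjusted p = 2.58e-07), and comr, of the same complex, from 1.75 ± 0.272 to 0.404 ± 0.157 CPM (-2.08, adjusted p = 1.66e-06). achi and mia had the smallest falls of the list, at -0.57 and -0.61. The 8 sperm chromatin genes all fell, with a median of -1.33. Mst77F, which packs sperm DNA, was at 204, 207 and 209 CPM in CK72h and 89.8, 86.5 and 89.7 CPM in CK96h (-1.22, adjusted p = 1.15e-21), and the protamines ProtA and ProtB fell by 1.19 and 1.30 on the log2 scale. The 17 tested cup genes, which are transcribed after meiosis, all fell, with a median of -1.35 and m-cup (-0.68) and f-cup (-0.90) the least changed. The 14 testis-specific proteasome subunits all fell, within the narrow range from -1.52 to -1.25.

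In the list of early germ cells and meiosis, 6 of 8 genes fell and 2 rose. fzo, which fuses the mitochondria of the spermatid, went from 24.9 ± 1.91 to 8.02 ± 0.67 CPM (-1.64, adjusted p = 5.76e-16) and bol, a translational regulator of meiotic entry, from 198 ± 2.92 to 81.6 ± 4.65 CPM (-1.28, adjusted p = 4.05e-21). The 2 that rose were bam (0.47, adjusted p = 0.00374), which germ cells of both sexes need to differentiate, and twe (0.34, adjusted p = 1.53e-07), a Cdc25 phosphatase of meiosis in both sexes.

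The Y chromosome, which D. melanogaster females lack, followed the testis genes. All 18 Y genes tested fell, with a median of -1.46 and a summed level of 80.5 ± 4.57 CPM in CK72h and 25.8 ± 0.613 CPM in CK96h. The dynein gene kl-5 (chromosome Y, 22250 to 137486) had the largest fall of the male lists, with 19.2, 18.2 and 19.4 CPM in CK72h and 3.9, 3.89 and 3.76 CPM in CK96h (log2 fold change -2.30 (SE 0.0982, adjusted p = 9.49e-18)). The dynein genes kl-3 (-1.92, adjusted p = 2.84e-11) and kl-2 (-1.75, adjusted p = 7.48e-10) were also called. CG45764, a Y gene of low level outside the lists, went from 1.08 ± 0.137 to 0.208 ± 0.0408 CPM (-2.36, adjusted p = 4.7e-06). FDY and PRY had the smallest falls of the chromosome, -0.65 and -0.84, with adjusted p-values of 0.0213 and 0.018.

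The somatic male glands fell by nearly as much as the germ line. All 57 tested accessory gland genes fell, with a median of -1.34, and their summed level was 5964 ± 109 CPM in CK72h and 2446 ± 57.1 CPM in CK96h. Acp36DE, needed for sperm storage in the mated female, was at 1106, 1083 and 1096 CPM in CK72h and 359, 358 and 384 CPM in CK96h (-1.58, adjusted p = 2.87e-22). SP, the sex peptide that changes female behaviour after mating, was at 22.9 ± 2.29 CPM in CK72h against 9.52 ± 0.627 CPM in CK96h (-1.27, adjusted p = 1.93e-13) and Acp26Aa, the ovulation hormone ovulin, at 228 ± 1.52 CPM in CK72h against 87.5 ± 5.79 CPM in CK96h (-1.38, adjusted p = 1.32e-21). The range over the list ran from -1.71 (intr) to -0.82 (Sfp24Bc). All 9 genes of the ejaculatory duct and bulb fell, with a median of -1.12. Gld, glucose dehydrogenase, was at 91.3 ± 0.834 CPM in CK72h against 30.8 ± 0.421 CPM in CK96h (-1.57, adjusted p = 3.78e-22), Ebp, a mating plug protein of the bulb, at 1745 ± 44.4 CPM in CK72h against 804 ± 33.9 CPM in CK96h (-1.12, adjusted p = 2.9e-18) and Est-6, an esterase of the duct that other tissues also make, at 829 ± 9.17 CPM in CK72h against 467 ± 13 CPM in CK96h (-0.83, adjusted p = 8.53e-17).

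The RNAs of dosage compensation moved the same way. lncRNA:roX1, which coats the male X chromosome, was at 193, 177 and 181 CPM in CK72h and 70.4, 73.5 and 75.5 CPM in CK96h (log2 fold change -1.33 (SE 0.0393, adjusted p = 2.95e-21)), and lncRNA:roX2 at 4.54 ± 0.218 CPM in CK72h against 2.2 ± 0.257 CPM in CK96h (-1.03, adjusted p = 3.66e-06). Among the other genes of sex determination, Sxl, whose protein is the female switch, rose by 0.41 (adjusted p = 4.92e-09), msl-2, whose protein is the male-limited part of the dosage compensation complex, fell by 0.38 on the log2 scale (adjusted p = 0.000183), and fru fell by 0.51 on the log2 scale (adjusted p = 2.98e-08). fit, a fat body gene with higher expression in females, was called higher, from 17.9 ± 0.835 to 52.8 ± 0.507 CPM (1.56, adjusted p = 6.28e-20), although not with upper-quartile factors or library totals. The non-coding genes as a class fell too: of 677 tested, 457 were lower by the adjusted p, 393 of them past a log2 fold change of -1, against 39.9% and 22.3% of all genes, with a median of -1.14.

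Families that hold both common and testis copies split. Of 87 tested cytoplasmic ribosomal protein genes, 80 rose, with a median over the family of 0.41, and 7 fell. RpL30 was among those that rose, from 683 ± 1.38 to 1118 ± 71.7 CPM (0.71, adjusted p = 5.95e-14), and RpL41 went from 1820.0 ± 82.7 to 3074 ± 403 CPM (0.76, adjusted p = 4.49e-11). The copies RpL10Aa and RpL37-2 went from 28.1 ± 2.03 to 10.4 ± 0.737 CPM (-1.43, adjusted p = 1.2e-15) and from 5.19 ± 0.507 to 1.82 ± 0.282 CPM (-1.51, adjusted p = 1.3e-08). Of 79 nuclear genes of the respiratory chain, 53 rose and 20 fell, and all 20 that fell were past a log2 fold change of -1. They included ND-51L1 (30.8 ± 0.709 to 8.84 ± 0.646 CPM, -1.80, adjusted p = 2.44e-18), ND-49L (27.6 ± 1.91 to 8.69 ± 1.01 CPM, -1.67, adjusted p = 2.35e-16) and ATPsynbetaL (20.2 ± 1.23 to 6.9 ± 0.322 CPM, -1.55, adjusted p = 4.09e-15), which are named as paralogs of complex I and ATP synthase subunits. The call of RpL37-2 was lost with no filter, with all 12 libraries, and without replicate 1 of CK72h (-1.43) or replicate 2 of CK96h (-1.40).

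Yolk genes rose. The 3 yolk protein genes Yp1, Yp2 and Yp3 and the yolk receptor gene yl all rose, with a median of 1.10 and a summed level of 7811 ± 45.3 CPM in CK72h and 17488 ± 2056 CPM in CK96h. Yp3, called and the gene of highest CPM among those called, was at 1312, 1357 and 1322 CPM in CK72h and 4166, 4124 and 3557 CPM in CK96h (log2 fold change 1.57 (SE 0.0569, adjusted p = 2.43e-19)). Its call was lost with library totals. Yp1 was at 2288, 2250.1 and 2249.8 CPM in CK72h and 5162, 4977 and 4058 CPM in CK96h (1.06, adjusted p = 3.17e-14) and Yp2 at 3519, 3577 and 3519 CPM in CK72h and 8461, 8338 and 6501 CPM in CK96h (1.13, adjusted p = 7.42e-14). In each of these genes replicate 3 of CK96h was the lowest of its group and still above every CK72h library. yl rose by 0.61 (adjusted p = 2.05e-13).

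Chorion genes rose in 18 of 19 cases, with a median of 1.30 and a summed level of 3618 ± 39.1 CPM in CK72h and 7517 ± 360.0 CPM in CK96h. Among the major chorion proteins, Cp36 was at 643, 659 and 641 CPM in CK72h and 1813, 1752 and 1643 CPM in CK96h (1.42, adjusted p = 1.59e-20), and Cp38 at 789 ± 19.4 CPM in CK72h against 2030.0 ± 158 CPM in CK96h (1.36, adjusted p = 5.15e-19). Of the late chorion cluster on chromosome 3L, Cp18 was called (98.8 ± 2.51 to 347 ± 25 CPM, 1.81, adjusted p = 4.96e-23), Cp15 rose by 0.79 and Cp16 by 0.15, and Cp19 was at 579 ± 6.67 CPM in CK72h against 572 ± 25.5 CPM in CK96h, with overlapping libraries (-0.02, adjusted p = 0.677). Genes of this cluster therefore did not share 1 size of change. CG14187, CG15570 and Cp7Fa were also called, at 4.59, 1.82 and 1.56, of which CG14187 went from 0.866 ± 0.0757 to 21 ± 1.89 CPM. Cp7Fa lost its call with upper-quartile factors and library totals.

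Of the 12 vitelline membrane genes 9 rose and 1 fell, with a median of 0.44. Fcp3C, a follicle cell protein (chromosome X, 3173376 to 3174474), stood apart with 1.93, 1.96 and 1.82 CPM in CK72h and 55.1, 51.3 and 50.3 CPM in CK96h (log2 fold change 4.77 (SE 0.0872, adjusted p = 4.42e-25)). Vm32E and Vm34Ca rose by 1.19 and 1.08, Vm26Aa by 0.29, and Vml fell by 0.31 on the log2 scale (adjusted p = 3.68e-08). The genes for eggshell cross-linking and follicle patterning had no common direction, with 4 of 10 higher and 5 lower and a median of -0.28. Of them, yellow-g (1.35, adjusted p = 4.09e-22) and yellow-g2 (1.18, adjusted p = 1.21e-20), needed for a rigid vitelline membrane, rose, and slbo (-1.23, adjusted p = 5.61e-11), the C/EBP factor of migrating border cells, fell.

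Genes of cell division and of the female germ line rose together. All 27 DNA replication and cell cycle genes rose, within 0.41 to 1.03, with CycB at 614, 631 and 631 CPM in CK72h and 1165, 1199.5 and 1123 CPM in CK96h (0.90, adjusted p = 5.9e-17) and CycA at 278 ± 3.53 CPM in CK72h against 534 ± 7.35 CPM in CK96h (0.94, adjusted p = 5.3e-19). All 19 piRNA genes, which silence transposons in the gonads, rose, from 0.25 to 1.31, the latter for rhi. Of 31 oocyte and maternal genes 27 rose and 1 fell. osk, the organiser of the germ plasm, rose by 0.44, nanos by 0.83 and bcd by 0.86. exu, which is transcribed in both testis and ovary, was the one that fell, with 571, 587 and 588 CPM in CK72h and 327, 319 and 315 CPM in CK96h (-0.86, adjusted p = 8.03e-18).

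The spermatheca, where females store sperm, gave no common direction, with 4 of 8 genes up and 4 down. The serine protease genes CG17234 and Send2 were among the 15 largest falls by the same rule: CG17234 was at 13.1, 13.2 and 12.8 CPM in CK72h and 1.33, 0.808 and 0.735 CPM in CK96h (log2 fold change -3.77 (SE 0.162, adjusted p = 1.05e-17)), and Send2 went from 20.4 ± 0.71 to 3.14 ± 0.394 CPM (-2.71, adjusted p = 1.03e-18). Send1 and CG17239, of the same organ, fell by 0.29 and 0.35 on the log2 scale (adjusted p = 0.000771 and 3.72e-06).

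**Figure D2:**
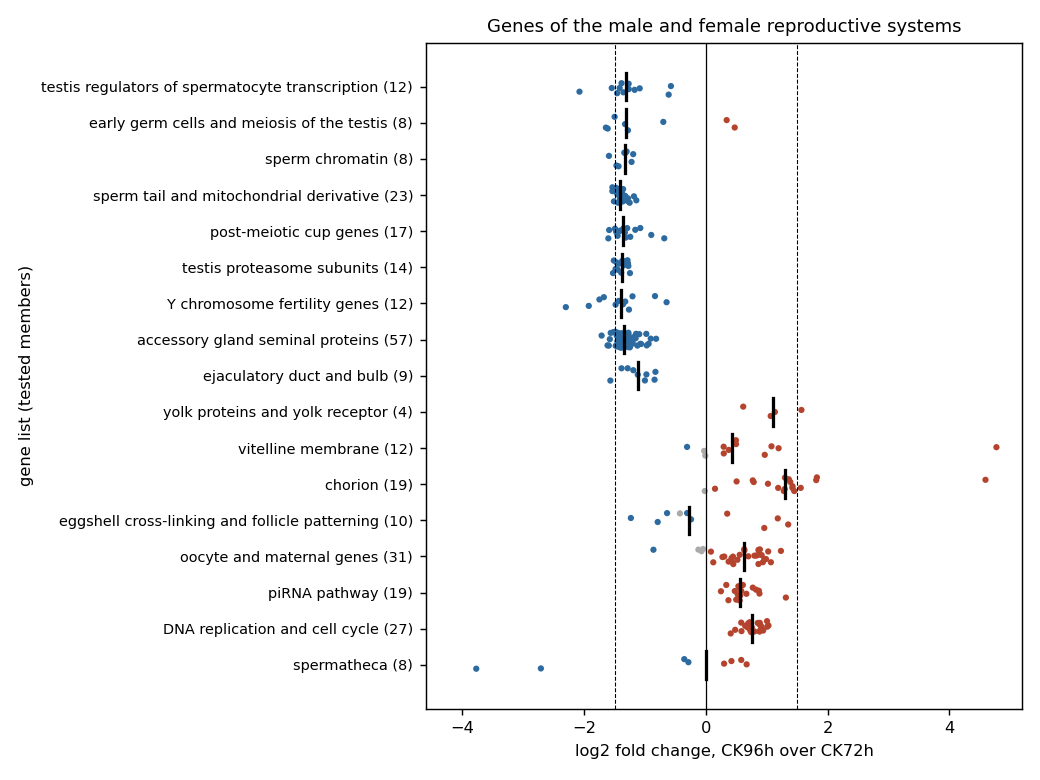
Log2 fold change of CK96h over CK72h (horizontal) for each tested gene of the male and female lists (rows, with the number of genes tested). Points are genes, red where they rose and blue where they fell at an adjusted p under 0.05, grey otherwise, black bars are list medians and dashed lines mark 1.5 and -1.5. The 9 male lists have medians from -1.41 to -1.12, and the yolk, vitelline membrane, chorion, maternal, piRNA and cell cycle lists have medians from 0.44 to 1.30, while the list of eggshell cross-linking and follicle patterning has one of -0.28 and the spermatheca one of 0.01.

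Immune effectors rose in these flies on ordinary medium. Of 20 antimicrobial peptide genes tested, 16 rose and 1 fell, and 12 were called. Of all genes 42.3% rose and 1.31% were called higher. The list had a median of 1.99. Their summed level was 247 ± 9.26 CPM in CK72h and 742 ± 13.4 CPM in CK96h.

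DptA, a Diptericin of the Imd pathway (chromosome 2R, 18865765 to 18866260), was at 4.36, 2.61 and 3.02 CPM in CK72h and 95.1, 98.1 and 95.2 CPM in CK96h (log2 fold change 4.84 (SE 0.0786, adjusted p = 2.53e-26)). It had the largest rise among called genes whose mean log2 CPM was 2 or more and whose groups did not overlap. Its neighbour DptB (18867391 to 18867895 on the same chromosome) was at 4.54, 4.1 and 2.83 CPM in CK72h and 103, 99.6 and 102 CPM in CK96h (4.72, adjusted p = 1.27e-26), though its exons overlap those of CG43109 on the opposite strand. AttC, an Attacin, was at 3.95, 5.59 and 5.32 CPM in CK72h and 107, 103 and 104 CPM in CK96h (4.40, adjusted p = 1.04e-26), and its exons overlap CG4744 on the opposite strand. All the CK96h libraries of these genes lay far above all the CK72h libraries, and the counting strand is not given in the sources used here.

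Mtk, Metchnikowin, an antifungal and antibacterial peptide, was at 1.98, 2.47 and 2.59 CPM in CK72h and 40.8, 47 and 46.9 CPM in CK96h (4.26, adjusted p = 2.23e-23). AttA and AttB, near-identical copies whose reads may be shared between them, went from 14.1 ± 1.4 to 70.9 ± 3.34 CPM (2.33, adjusted p = 1.66e-22) and from 15.1 ± 0.329 to 56 ± 2.62 CPM (1.89, adjusted p = 3.16e-21). Dro, Drosocin, was at 10.6, 9.46 and 11.6 CPM in CK72h and 60.1, 63.6 and 65.5 CPM in CK96h (2.58, adjusted p = 7.4e-23). The called genes of low level were CecC (0.187 ± 0.124 to 2.29 ± 0.0787 CPM, 3.58, adjusted p = 7.18e-10), Drsl3 (0.156 ± 0.0762 to 1.27 ± 0.108 CPM, 2.99, adjusted p = 2.38e-07), AttD (0.123 ± 0.07 to 0.706 ± 0.173 CPM, 2.44, adjusted p = 8.06e-05), edin (1.32 ± 0.253 to 5.62 ± 0.554 CPM, 2.08, adjusted p = 8.86e-11) and CecA2 (1.83 ± 0.524 to 5.28 ± 0.634 CPM, 1.52, adjusted p = 3.97e-08), and the call of CecA2 was lost under other scalings and without replicate 2 (1.44) or 3 (1.37) of CK72h or replicate 2 of CK96h (1.43). Not all members followed: Def rose by only 0.30, CecA1 was at 13.9 ± 1.01 CPM in CK72h against 12.4 ± 1.27 CPM in CK96h with overlapping libraries (-0.16, adjusted p = 0.0964), and Listericin, an effector tied to JAK-STAT and the receptor PGRP-LE, fell from 73.5 ± 2.9 to 42.2 ± 4.11 CPM (-0.79, adjusted p = 1.25e-13). Drs, the main Toll-regulated peptide, was not analysed here.

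All 16 Bomanins and related short peptides of the Toll pathway rose, 10 of them called, against 42.3% and 1.31% of all genes, with a median of 1.71 and a summed level of 464 ± 16.8 CPM in CK72h and 1114 ± 25 CPM in CK96h. BomS2 was at 15.7, 15.8 and 11.2 CPM in CK72h and 73, 77 and 70 CPM in CK96h (2.36, adjusted p = 5.5e-21) and BomS3 at 50.1, 44.6 and 48.7 CPM in CK72h and 154, 155 and 153 CPM in CK96h (1.69, adjusted p = 5.57e-23). Dso1, a Daisho antifungal peptide, was at 11.1 ± 1.99 CPM in CK72h against 55.5 ± 6.05 CPM in CK96h (2.32, adjusted p = 3.72e-19). IM33 and BomT3 rose by less, 0.88 and 0.81. IBIN, an infection-induced short peptide, was counted in 1 of the CK72h libraries, at 0.225 CPM, and in all CK96h libraries at 2.03, 2.27 and 2.68 CPM, so that its fold is uncertain.

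Upstream of the effectors the changes were smaller, and the counts stand against 42.3% of all genes that rose and 1.31% called higher. Of 15 recognition genes 12 rose, with a median of 0.37, and PGRP-SB1, a secreted amidase, and GNBP-like3 were called: PGRP-SB1 was at 7.23, 9.23 and 6.47 CPM in CK72h and 60.2, 56.4 and 58.9 CPM in CK96h (2.93, adjusted p = 1.56e-22), and GNBP-like3 at 6.94 ± 0.529 CPM in CK72h against 35.8 ± 0.881 CPM in CK96h (2.36, adjusted p = 7.29e-21). Of 27 Imd and Toll signalling genes 22 rose and 1 fell, with a median of 0.31. The called one was pirk, an inhibitor of the Imd pathway and one of its targets, at 3.06, 4.38 and 3.16 CPM in CK72h and 20.8, 19.4 and 22.3 CPM in CK96h (2.56, adjusted p = 1.33e-17). Rel, the NF-kappaB factor of Imd, rose by 0.38, spz, the Toll ligand, by 0.75 and psh, a protease that senses microbial proteases, by 0.82. The Turandot stress peptides TotA, TotC, TotM and TotX rose by 1.44, 1.47, 1.88 and 1.11. Of these TotM was called, at a low level, from 0.668 ± 0.277 CPM in CK72h to 2.47 ± 0.402 CPM in CK96h. TotB, TotF and TotZ had too few counts to be tested.

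Hemocyte genes rose beside the peptides. In the list of hemocytes and basement membrane, 15 of 19 genes rose and 2 fell, and the 5 called were the blood cell genes PPO2, eater, NimC1, Hml and Sr-CI, against 42.3% of all genes higher and 1.31% called higher. PPO2, the prophenoloxidase of crystal cells, was at 19.3, 18.5 and 19.9 CPM in CK72h and 113, 103 and 108 CPM in CK96h (2.50, adjusted p = 1.08e-24). NimC1, a phagocytosis receptor, was at 7.23, 6.85 and 7.66 CPM in CK72h and 32.7, 33.4 and 31.4 CPM in CK96h (2.16, adjusted p = 6.09e-20) and eater, another such receptor, at 2.25, 2.28 and 1.58 CPM in CK72h and 8.3, 10.1 and 9.21 CPM in CK96h (2.17, adjusted p = 5.51e-13). Hml, hemolectin, was at 38.6, 38.3 and 41.1 CPM in CK72h and 147, 143 and 143 CPM in CK96h (1.88, adjusted p = 5.6e-24) and Sr-CI, a scavenger receptor, at 7.81 ± 0.821 CPM in CK72h against 25.2 ± 0.972 CPM in CK96h (1.69, adjusted p = 1.61e-16). The matrix genes of the list, which the fat body makes too, moved less: Col4a1, vkg and SPARC rose by 0.60, 0.57 and 0.63, and Ndg fell by 0.25 on the log2 scale. Fat body genes rose as well in 13 of 15 cases, with a median of 0.34, and their part in the immune result was not tested.

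**Figure D3:**
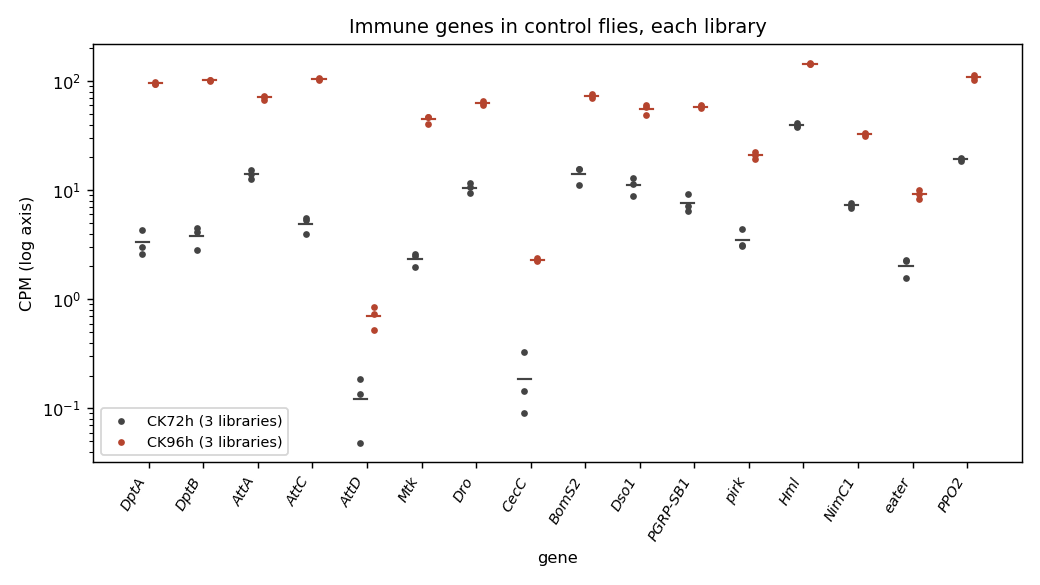
CPM (log axis) of 16 immune genes (horizontal) in each control library, CK72h in grey and CK96h in red, with short bars at the means of 3 libraries. The CK96h points lie above the CK72h points for every gene shown, with the widest gaps for DptA, DptB, AttC and Mtk (log2 fold changes of 4.84, 4.72, 4.40 and 4.26).

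Some genes known from the antenna, Obp83b, Obp83a, a10 and Os-C, were among the 15 largest falls. They are named by that rank, and no list of antenna genes was made, so the antenna as a whole was not tested. The odorant-binding proteins, secreted carriers of odorants, went both ways: of 31 tested, 16 fell and 10 rose, with a median of -0.40, 7 called lower and 2 called higher. Over all genes 39.9% fell and 42.3% rose, and 7.08% were called lower and 1.31% higher. Obp83b was at 12.2, 13.2 and 13.9 CPM in CK72h and 0.692, 1.72 and 1.69 CPM in CK96h (log2 fold change -3.24 (SE 0.168, adjusted p = 7.36e-16)). Its neighbour Obp83a (chromosome 3R, 5972155 to 5975245) was at 23.8, 25.7 and 24.1 CPM in CK72h and 3.36, 2.48 and 2.51 CPM in CK96h (-3.14, adjusted p = 4.13e-20). Both encode abundant proteins of the antenna.

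a10 and Os-C, olfactory-specific genes of the antenna, fell likewise. a10 was at 12, 10.6 and 11.6 CPM in CK72h and 1.19, 1.87 and 1.77 CPM in CK96h (-2.82, adjusted p = 1.22e-15) and Os-C at 16.6, 17.1 and 16.6 CPM in CK72h and 2.52, 1.52 and 1.77 CPM in CK96h (-3.11, adjusted p = 5.99e-18), though the exons of Os-C overlap Sfp84E on the opposite strand. Obp59a (-3.20, adjusted p = 4.14e-09), Obp19a (-2.64, adjusted p = 7.16e-10), Obp19b (-1.94, adjusted p = 2.15e-15), Obp69a (-1.90, adjusted p = 1.06e-07) and Obp28a (-1.63, adjusted p = 1.6e-11) were also called lower. Obp19c rose from 31.9 ± 1.46 to 104 ± 4.04 CPM (1.70, adjusted p = 3.04e-22) and Obp83ef from 2.11 ± 0.671 to 6.26 ± 0.434 CPM (1.56, adjusted p = 6.97e-09), the latter not called with upper-quartile factors, with library totals, or without replicate 2 (1.41) or 3 (1.47) of CK72h.

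Genes of cuticle-forming epithelia fell in part. The counts in this paragraph stand against 39.9% of all genes that fell and 42.3% that rose. Of 13 Osiris genes tested, a family of membrane proteins of cuticle-forming cells, 12 fell and none rose, with a median of -1.25 and a summed level of 333 ± 3.21 CPM in CK72h and 93.2 ± 5.46 CPM in CK96h. Osi6 was at 150.2, 150.5 and 149 CPM in CK72h and 27.9, 31.2 and 32.7 CPM in CK96h (log2 fold change -2.29 (SE 0.0449, adjusted p = 1.08e-24)), and Osi7 (chromosome 3R, 6248994 to 6251683) at 101, 96.7 and 95.4 CPM in CK72h and 18.3, 15.7 and 20.9 CPM in CK96h (-2.40, adjusted p = 7.74e-23). In the list of juvenile hormone and ecdysone genes 11 of 27 rose and 8 fell, with a median of 0.18. Its ecdysone-inducible genes ImpE1, ImpE2 and ImpL1, known from imaginal discs, fell from 15.5 ± 0.475 to 3.29 ± 0.163, 28.7 ± 1.72 to 6.45 ± 0.209 and 24.4 ± 2.39 to 6.64 ± 0.751 CPM, log2 fold changes of -2.23, -2.15 and -1.89. ImpL2 had a change of -0.32 and ImpE3, with overlapping libraries, of -0.53, adjusted p = 0.133. The structural cuticle proteins of the RR type had no common direction, with 20 of 49 lower, near the share over all genes, and 10 higher. Their median was -0.12, and calls lay as far apart as -2.44 for Acp65Aa and 2.93 for Cpr47Eg. The Tweedle genes likewise split, with 9 of 17 lower and 4 higher, TwdlN the called rise (2.11, adjusted p = 1.49e-12) and Twdlalpha the called fall (-1.51, adjusted p = 6.19e-12). The call of Twdlalpha was lost with no filter, with all 12 libraries, and without replicate 2 of CK72h (-1.49) or of CK96h (-1.40).

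All 13 genes of neurons fell, against 39.9% of all genes. Their median was -0.87, and their summed level was 715 ± 18.3 CPM in CK72h and 372 ± 19.2 CPM in CK96h. Gad1, which makes the transmitter GABA, was at 97.4, 96.6 and 101 CPM in CK72h and 39, 36.9 and 36.6 CPM in CK96h (-1.39, adjusted p = 4.03e-21). futsch, a microtubule protein of axons, fell by 1.37 on the log2 scale, brp, of the active zone, by 1.07 and elav, a pan-neuronal RNA-binding protein, by 0.62. Eye genes fell by less, in 16 of 18 cases with a median of -0.39. The main rhodopsin gene, ninaE, was at 2708, 2688 and 2628 CPM in CK72h and 2129, 2085 and 2050.1 CPM in CK96h (-0.36, adjusted p = 1.21e-07). The gene trp, for a channel of the light response, was at 292 ± 3.43 CPM in CK72h against 161 ± 1.34 CPM in CK96h (-0.86, adjusted p = 1.05e-18). ninaD, a scavenger receptor for carotenoids that works in the midgut, was called higher, from 5.01 ± 0.654 to 22.7 ± 0.176 CPM (2.18, adjusted p = 8.3e-18).

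Muscle genes mostly fell, 16 of 21 against 4 that rose, with a median of -0.56. Of all genes 39.9% fell and 42.3% rose. Act79B, the actin of leg and jump muscles, was at 416, 427 and 428 CPM in CK72h and 123, 116 and 117 CPM in CK96h (log2 fold change -1.83 (SE 0.036, adjusted p = 1.08e-24)). Mhc, the only muscle myosin heavy chain gene, was at 1296, 1311 and 1306 CPM in CK72h and 537, 526 and 526 CPM in CK96h (-1.30, adjusted p = 8.43e-21), and sls, which encodes a titin-like protein, at 363 ± 10.7 CPM in CK72h against 146 ± 5.95 CPM in CK96h (-1.31, adjusted p = 1.09e-21). TpnC4, the troponin C of stretch-activated flight muscle, went the other way and was called, at 23.1, 24.9 and 23.6 CPM in CK72h and 84.1, 99.2 and 98.2 CPM in CK96h (1.98, adjusted p = 1.7e-21).

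In the fat body and gut, apolpp, the precursor of the main lipoprotein of the hemolymph, was at 827, 799.8 and 843 CPM in CK72h and 2047, 2193 and 2223 CPM in CK96h (1.39, adjusted p = 4.98e-20), and Tsf1, the iron carrier transferrin, at 410.0 ± 2.95 CPM in CK72h against 880.0 ± 40.7 CPM in CK96h (1.10, adjusted p = 4.45e-19). The maltase-like gene tobi, a target of sugar and protein signals, was called lower, with 313, 316 and 309 CPM in CK72h and 90.5, 86.5 and 86.8 CPM in CK96h (-1.83, adjusted p = 1.05e-24), and Mal-A1, a midgut maltase, fell from 439.7 ± 4.8 to 207 ± 1.92 CPM (-1.08, adjusted p = 9.02e-21), whereas the amylase-related gene Amyrel rose from 0.186 ± 0.162 to 0.817 ± 0.184 CPM (2.11, adjusted p = 0.000202). Npc2d and Npc1b, which belong to families of sterol handling, were called higher: Npc2d was at 8.09, 8.25 and 7.38 CPM in CK72h and 49.3, 47.3 and 47.5 CPM in CK96h (2.60, adjusted p = 1.05e-22), and Npc1b, which takes up sterol in the midgut, at 7.54 ± 0.787 CPM in CK72h against 28.8 ± 0.927 CPM in CK96h (1.94, adjusted p = 3.3e-18). Whole gut lists moved less than these genes. The median was 0.57 for trypsins, 0.20 for Jonah proteases and 0.32 for digestive lysozymes. It was -0.17 for amylases and maltases and 0.50 for midgut lipases and sterol handling. In the list of oenocytes and cuticular hydrocarbons 4 of 6 genes rose and 2 fell, with a median of 0.28. The desaturase gene Desat2, of low level, rose from 0.493 ± 0.16 to 1.14 ± 0.361 CPM (1.18, adjusted p = 0.00327). The oenocyte enzyme Cyp4g1, which makes the hydrocarbons of the cuticle, was at 18968, 18606 and 18665 CPM in CK72h and 8601, 8816 and 7659 CPM in CK96h (-1.17, adjusted p = 9.81e-15).

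The clock gene tim was called lower, with 220.3, 223 and 226 CPM in CK72h and 64.5, 61.4 and 59.7 CPM in CK96h (-1.85, adjusted p = 1.62e-24). Its list had 5 of 10 genes higher and 5 lower, with a median of -0.08, and the hour of collection is not given in the sources used here. Malpighian tubule genes had a median of -0.09. The medians of the clock and tubule lists changed sign in the fit of 12 libraries. Of 14 heat shock genes 9 fell and 2 rose, with Hsp68 at 38.8 ± 0.953 CPM in CK72h against 16 ± 1.73 CPM in CK96h (-1.28, adjusted p = 5.13e-16) and Hsp26 at 389.6 ± 1.8 CPM in CK72h against 712 ± 37.4 CPM in CK96h (0.87, adjusted p = 7.66e-17). Transcripts of the mitochondrial genome took 7.29% to 10.6% of the counts of a control library, and their summed level overlapped between the times. Of these genes 17 of 20 tested rose and 1 fell, 4 were called higher, and the median was 0.66. The counts in this paragraph stand against 42.3% of all genes that rose, 39.9% that fell and 1.31% called higher.

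**Figure D4:**
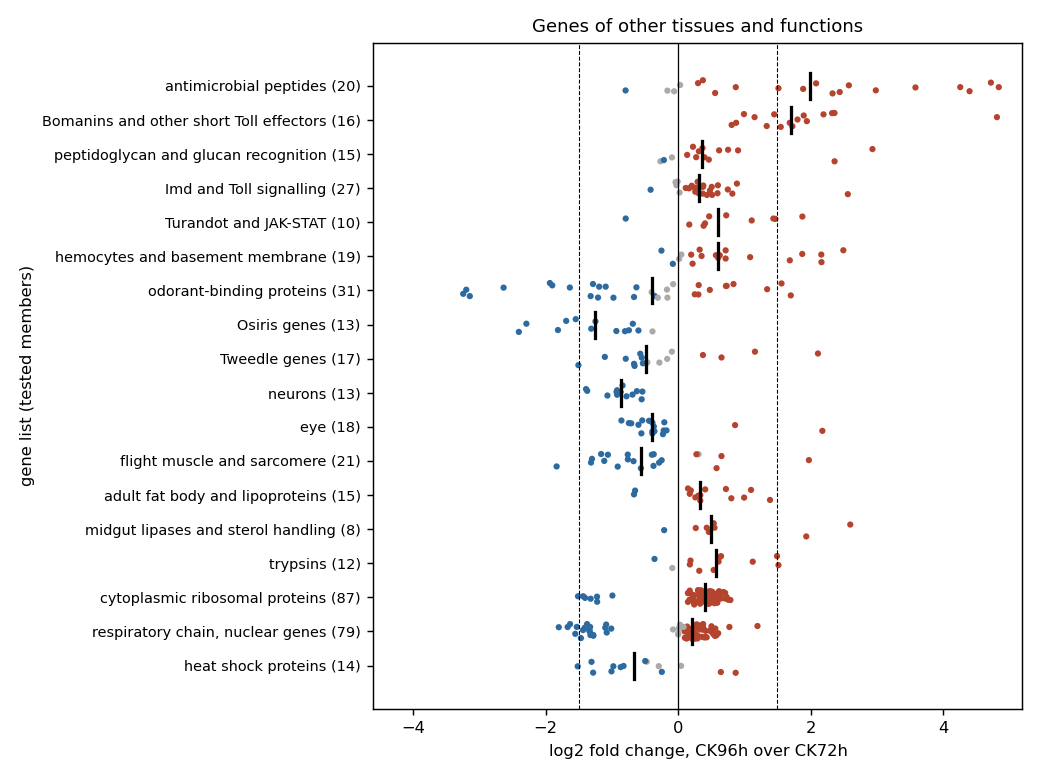
Log2 fold change of CK96h over CK72h (horizontal) for each tested gene of lists of immunity, other tissues and functions (rows, with the number of genes tested). Points are genes, red where they rose and blue where they fell at an adjusted p under 0.05, grey otherwise, black bars are list medians and dashed lines mark 1.5 and -1.5. The peptide and Bomanin lists reach beyond 4, the odorant-binding proteins beyond -3, and the ribosomal and respiratory chain lists fall into separate groups of points.

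The remaining genes named by rank were the following. Beside the immune and eggshell genes, the 15 largest rises held CG43920 (from 0.478 ± 0.0919 to 11.6 ± 0.495 CPM, 4.58, adjusted p = 1.98e-18), CG6034 (from 0.576 ± 0.216 to 10.3 ± 0.269 CPM, 4.16, adjusted p = 4.5e-17), CG15534 (2.93, adjusted p = 9.49e-20), CG11162 (2.79, adjusted p = 1.64e-14), CG10182 (2.78, adjusted p = 3.66e-18, with exons overlapping an opposite-strand gene), LManV, a lysosomal alpha-mannosidase (7.7 ± 0.618 to 48.6 ± 1.27 CPM, 2.65, adjusted p = 1.14e-22), and a gene without a symbol, FBgn0261362 (2.79, adjusted p = 1.05e-24). By the same rule the largest fall was that of CG15263 (chromosome 2L, 15285000 to 15286047), with 16.4, 13.9 and 18.9 CPM in CK72h and 0.642, 0.96 and 0.864 CPM in CK96h (log2 fold change -4.31 (SE 0.17, adjusted p = 1.73e-18)). The other falls were CG3108 (-2.96, adjusted p = 3.04e-19), CG6026 (-2.43, adjusted p = 3.62e-15), dsx-c73A (-2.37, adjusted p = 1.09e-12), CG3739 (-2.24, adjusted p = 9.85e-24) and a gene without a symbol, FBgn0033359 (-2.32, adjusted p = 2.11e-12). For each of these genes the groups did not overlap, which held for 5495 genes higher (42.5% of those tested) and 5198 lower (40.2%).

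Of the 12 called genes of highest CPM, 9 were lower and 3 higher. CG17097, which encodes a lipase-like protein, was at 1568, 1552 and 1556 CPM in CK72h and 509, 503 and 524 CPM in CK96h (-1.61, adjusted p = 2.73e-22), CG31872, of the same kind, at 807 ± 15.1 CPM in CK72h against 255 ± 6.01 CPM in CK96h (-1.66, adjusted p = 3.17e-23) and Hsp60C, a mitochondrial chaperonin with a role in spermatogenesis, at 386 ± 4.93 CPM in CK72h against 128 ± 2.36 CPM in CK96h (-1.59, adjusted p = 8.22e-24). A gene without a symbol, FBgn0038762, was at 1596 ± 14.4 CPM in CK72h against 547 ± 10.8 CPM in CK96h (-1.54, adjusted p = 5.8e-22). The rises beside Yp3 were CG12057, at 107, 105 and 101 CPM in CK72h and 635, 616 and 615 CPM in CK96h (log2 fold change 2.57 (SE 0.0382, adjusted p = 9.71e-27)), and CG11911, a predicted serine protease, at 139 ± 6.34 CPM in CK72h against 431 ± 19.7 CPM in CK96h (1.63, adjusted p = 7.46e-23). These levels are not corrected for gene length and do not rank the genes by number of transcripts.

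The same interval in flies on erythritol gave a different picture. The study reports that erythritol-fed flies died faster than control flies, with deaths rising between the collection days. The T96h pools were therefore drawn from a population with more deaths behind it than the T72h pools. A shift in which flies were left cannot be told apart from a change within flies, and it was not tested. T96h and T72h share no library with the control comparison, and both contrasts are given here from 1 fit of all 12 libraries, over 13179 genes, in which the median of all genes was 0.12 for the controls and -0.01 for erythritol-fed flies. The fit called 86 genes higher (0.653%) and 98 lower (0.744%) in T96h than in T72h. The contrasts differed by the interaction test, at an adjusted p under 0.05, for 10404 genes (78.9%). The 1738 genes of the block between -1.75 and -1 in the main comparison had a median of -1.29 in controls in this fit and of 0.88 in erythritol-fed flies, where 1584 of them (91.1%) were above 0.

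The sperm tail list had a median of -1.30 in controls and of 1.02 in erythritol-fed flies, with 23 of 23 genes higher by the adjusted p against 26.3% of all genes. The accessory gland list had medians of -1.23 and 0.05, with 19 of 57 genes higher and 7 lower in erythritol-fed flies, against 26.8% of all genes lower. Chorion genes had medians of 1.41 and -2.56, antimicrobial peptides of 2.10 and -1.45, eye genes of -0.28 and 1.16, and muscle genes of -0.45 and -0.94. Some genes moved in the same direction in both: CG17234 had log2 fold changes of -3.66 and -4.63 (adjusted p of the difference = 0.0981), Mhc of -1.19 and -1.22 (adjusted p = 0.685), TotA of 1.55 and 1.81 (adjusted p = 0.0778) and Obp19a of -2.52 and -2.62 (adjusted p = 0.853), and a p that misses the threshold does not show that they were equal. In erythritol-fed flies CG17234 went from 2.55 ± 0.354 to 0.097 ± 0.00363 CPM, so its fold there rests on few counts (SE of the difference 0.533).

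**Figure D5:**
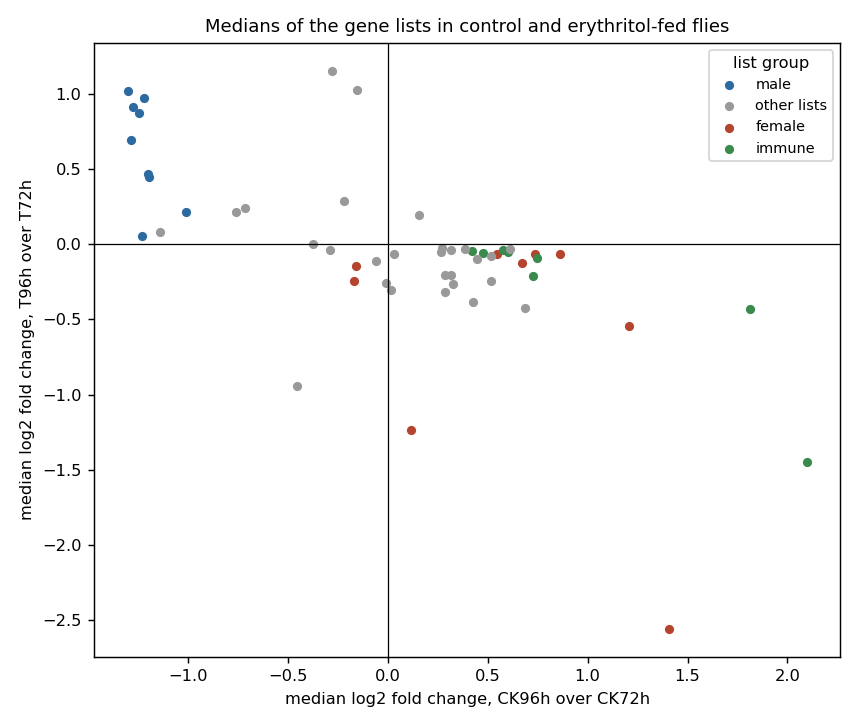
Median log2 fold change of each of the 54 gene lists between 96 h and 72 h in control flies (horizontal) and in erythritol-fed flies (vertical), both from the fit of 12 libraries. Points are lists, coloured by group. The 9 male lists lie left of 0 and above 0, the antimicrobial peptides at 2.10 and -1.45, and the chorion at 1.41 and -2.56.

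The groups have 3 libraries each, so for any gene or sum an exact permutation test could not reach a p under 0.1, and the p-values above rest on the spread pooled over genes. That spread was small, with a coefficient of variation of 3.45%. In the fit of 12 libraries S-Lap3, S-Lap4, can, Acp36DE, Gld, ATPsynbetaL, CG17097, Hsp60C and FBgn0038762 kept their direction and fell short of the fold threshold. The methods call the replicates biological, but nothing in the labels says that they came from separate pools of flies, and p-values would then measure only the spread between these libraries. The share of males and females in each pool is not given and cannot be told apart from a change within the sexes. All CK72h libraries are of day 3 and all CK96h libraries of day 4. The age of the flies, the day of collection and any batch of handling therefore cannot be told apart. Without the counting strand, reads of overlapping genes cannot be parted either: beside the genes marked above, exons of bam, twe, bol, Sxl, msl-2, lncRNA:roX1, yl, yellow-g, osk, RpL30, Ndg, futsch, Obp69a, Twdlalpha, ImpL2, Desat2, Hsp68, dj, f-cup, Est-6, tra, fit, Yp1, exu, nanos, spz, tobi, Mal-A1, Amyrel, apolpp, sls, elav, Obp59a, Obp83ef and tim overlap another gene.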

How the data were processed

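The authors enriched poly(A) RNA, built libraries with the NEBNext Ultra kit, removed adapters and low-quality reads and aligned the rest with HISAT2 to release 6.37 of the FlyBase genome. The submitters' notes also name CASAVA 1.8. Which program made the counts, and whether it used strand, is not given in the sources used here. The deposited values are raw counts per gene, whole numbers with no scaling. The deposited table holds 17707 genes, of which 149 are gene models predicted by the authors. Symbols, positions and overlaps came from the Ensembl BDGP6.54 annotation of the same Release 6 assembly (dm6), and 306 FlyBase identifiers had no symbol there.

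Counts of the 6 control libraries were filtered by filterByExpr, scaled by TMM and tested in edgeR 4.0.16 (R 4.3.3) with the quasi-likelihood test. The interaction with erythritol-fed flies used all 12 libraries and the adjusted p alone. SE is the absolute log2 fold change over the root of the F statistic. Named genes were list members with the smallest adjusted p, the highest mean CPM or a tissue-defining role, the 15 largest rises and 15 largest falls among called genes whose mean log2 CPM was 2 or more and whose groups did not overlap, and the 12 called genes of highest CPM. The members, the 54 lists and this rule were chosen with earlier results of these data known. Alternatives were RLE and upper-quartile factors, library totals, other filters, DESeq2 1.42.0, all 12 libraries, a replicate block, other thresholds and leaving out each library. Of the list entries 21 were not analysed here. Counts of replicate libraries differed by more than sampling noise, so all were kept. Counting error alone limits genes of low counts.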

Additional observations from a re-analysis of the deposited data

Results flagged for a closer look

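Values here are CPM from the fit of all 12 libraries, and a ratio is the mean of 3 libraries at 96 h over that of 3 at 72 h. The lists given here were picked because their summed levels moved in opposite directions in control and erythritol-fed flies. A picked list also had no overlap between the times in either and a minimum fold in both. The directions follow from that choice. The difference between the sums was not tested. The deaths among erythritol-fed flies between the collection days, named above, bear on every erythritol contrast given here. For the early germ cells and meiosis of the testis list, the ratio was 0.436 in controls and 1.69 in erythritol-fed flies. For the sperm chromatin list, the ratio was 0.431 in controls and 1.97 in erythritol-fed flies. For the sperm tail and mitochondrial derivative list, the ratio was 0.401 in controls and 2.1 in erythritol-fed flies. For the post-meiotic cup genes list, the ratio was 0.47 in controls and 1.63 in erythritol-fed flies. For the testis proteasome subunits list, the ratio was 0.412 in controls and 1.95 in erythritol-fed flies. For the Y chromosome fertility genes, the ratio was 0.339 in controls and 1.6 in erythritol-fed flies. 

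Chorion genes summed to 3365 CPM in CK72h and 7541 in CK96h, a ratio of 2.24, and to 612 CPM in T72h and 9.47 in T96h, a ratio of 0.0155. Antimicrobial peptides had ratios of 3.24 and 0.366. For single genes the difference between the contrasts, control minus erythritol, was tested in edgeR's quasi-likelihood fit. DptA differed by 6.69 on the log2 scale (adjusted p = 4.19e-22), with 4.95 in controls and -1.74 in erythritol-fed flies. DptB differed by 7.03 on the log2 scale (adjusted p = 7.75e-24), with 4.83 in controls and -2.20 in erythritol-fed flies. CG43920 differed by 7.56 on the log2 scale (adjusted p = 4.08e-15), with 4.68 in controls and -2.88 in erythritol-fed flies. AttC differed by 6.91 on the log2 scale (adjusted p = 1.25e-24), with 4.51 in controls and -2.40 in erythritol-fed flies. Mtk differed by 7.63 on the log2 scale (adjusted p = 6.09e-19), with 4.37 in controls and -3.26 in erythritol-fed flies. These genes were called in both contrasts, in opposite directions. They were picked from the named genes by opposite signs, a call in erythritol-fed flies and an adjusted p of the difference under 0.05. Their directions and small p-values therefore follow from that choice and are no separate result. Over all genes the difference passed the test for 10404 of 13179, and control libraries at 96 h enter every one of these differences.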

How the results depend on the processing

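Genes higher numbered 169 and genes lower 916. Rises ranged from 123 (mean CPM of at least 1) to 240 (no filter) and falls from 536 (all 12 libraries) to 1357 (library totals) over scalings, filters and fits at the same thresholds. Upper-quartile factors gave 146 higher and 1262 lower, so falls were 89.6% of calls against 84.4%, and 72.3% in the fit of 12 libraries. A fold threshold of 1 gave 371 and 2881, and the adjusted p alone 5469 and 5168. DESeq2 gave 212 and 1088. Leaving out each control library in turn gave 172 to 198 higher and 928 to 1049 lower. The labels state no pairing by replicate number. Correlations of same-numbered deviations were -0.098, -0.002 and -0.010, which with 3 replicates cannot exclude a pairing, and the replicate block gave 170 and 926. The interaction count of 10404 became 9645 with upper-quartile factors, 8842 with library totals, 10401 with the replicate block and 10215 to 10301 without each library. Cp19, near 0, changed sign to 0.0908 with all 12 libraries and ran from -0.0380 to 0.0237 without each library. The medians of 5 of 54 lists changed sign under an alternative. Of these, 4 lay between -0.0924 and 0.0740, and that of the larval fat body and storage list, with 3 genes, went from -0.260 to 0.0267 without replicate 1 of CK72h. Genes close to 1.5 gained or lost a call with the scaling or the libraries fitted, and genes of few counts, such as CecC, Drsl3 and IBIN, have folds limited by depth.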
